A study of Mus musculus with 10 samples.

Results

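The Hox genes are the classical targets of Polycomb repression, and here they were followed in mouse embryonic stem cells (ESCs) from which MAX was withdrawn. Members were all genes of the Hoxa, Hoxb, Hoxc and Hoxd clusters for which the array annotation gave a probe set with a single Hox symbol, and each gene was read from its brightest probe set by the mean of all arrays. By this rule 48 probe sets covered 33 of the 39 mouse Hox genes, out of 18193 genes measured in all. They comprised 9 of 11 Hoxa genes, 9 of 10 Hoxb genes, 7 of 9 Hoxc genes and 8 of 9 Hoxd genes, and the other 6 were not analysed here. The question was whether the Hox genes open along with germ cell genes, a class that another Polycomb complex is known to hold silent.

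All samples were male *Max*-null ESCs of strain 129SV, in which both endogenous *Max* alleles were disrupted and MAX came from a cDNA in the ROSA26 locus under the tetracycline-off system, so that doxycycline (Dox) removed it. The untreated cells therefore carried the same disruption and lived on the cDNA. RNA was measured on 10 Affymetrix arrays. In conventional medium with leukaemia inhibitory factor and serum (LIF+serum), set 1 held an untreated array and Dox 1, 2, 3 and 4 d, and set 2 held a second untreated array and Dox 6 and 8 d. In 2i+LIF, in which inhibitors of MEK and GSK3β hold ESCs in the naive state, there was 1 array after 6 d of Dox and 1 untreated array.

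Hox genes encode homeodomain transcription factors that give cells of the embryo their position along the body axis. Each cluster is opened in order from its anterior end, which holds paralogue group 1, towards its posterior end, which holds group 13. In ESCs the clusters are kept silent by PRC2, which places a methyl mark on the tail of a histone, and by the canonical and variant forms of PRC1, which compact chromatin and ubiquitylate another histone. PRC1.6 is the variant form that contains MGA with MAX, and E2F6. It is known for holding germ cell and meiosis genes silent, and MGA-MAX recognises the E-box CACGTG.

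*Hoxd1*, *Hoxb2* and *Hoxc13* rose with days of Dox in LIF+serum, *Hoxd1* to 8.01-fold at 6 d, *Hoxb2* to 3.02-fold and *Hoxc13* to 1.88-fold at 8 d, and the other 30 members did not pass the test. The untreated signals of *Hoxd1* (3.17 and 4.50, log2) and *Hoxb2* (4.88 and 4.52) lay below 6, the level used here for a dim probe set, so these folds rest on dim signals. The change per day of Dox, a slope on the log2 scale, was estimated with limma over the 8 LIF+serum arrays. The fit allowed each array set its own level, and p-values were adjusted over all 45037 probe sets. By this test 3 of 33 Hox genes rose, or 9.09%, beside 5.75% of all genes. None of the Hox genes fell (0 of 33), beside 5.33% of all genes, and at an unadjusted p under 0.05 the counts were 4 higher (12.1%, beside 13.2% of all genes) and 1 lower (3.03%, beside 14.8%). The median slope of the Hox genes was 0.028 per day (log2), beside -0.009 over all genes. No source used here states separate cultures for the arrays, and the spread behind each p-value is therefore that between arrays, which may be technical. In such bulk samples a change in the share of cells that express a gene cannot be told apart from a change in RNA per cell.

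**Figure D1:**
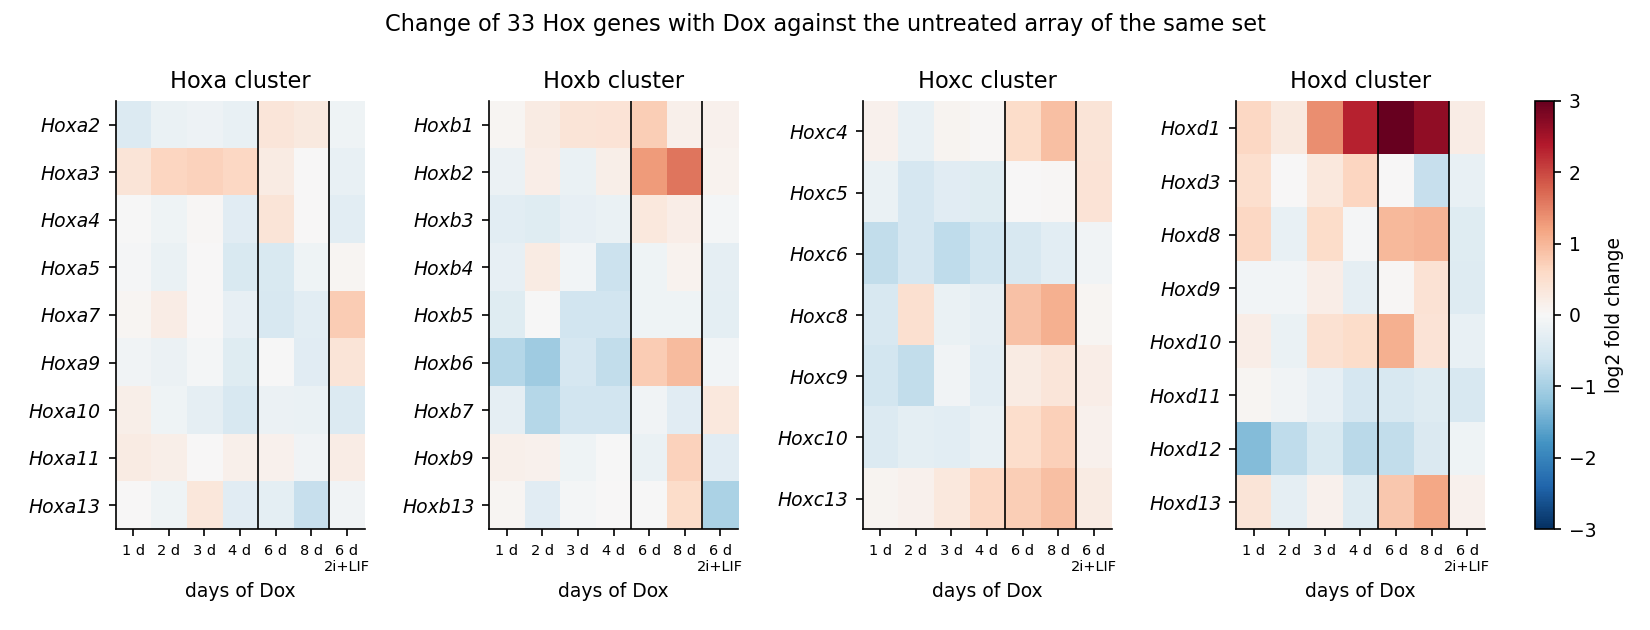
Change of each of the 33 Hox genes with Dox, as log2 fold over the untreated array of the same set, with 1 column per Dox array (days of Dox, then 6 d in 2i+LIF) and 1 row per gene in the order of paralogue groups; vertical lines part the array sets. *Hoxd1* is the row that stands out in LIF+serum, with folds up to 8.01, and no row passes 2-fold in 2i+LIF.

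The promoter of *Hoxd1* is shown because this gene had the largest slope among the Hox genes. The letters are the 250 bases before its RefSeq start, at chr2:74762730-74762979 on the plus strand of GRCm38.p6, and capitals mark the E-box CACGTG and the letters TCCCGC of the E2F6 core.
Hoxd1: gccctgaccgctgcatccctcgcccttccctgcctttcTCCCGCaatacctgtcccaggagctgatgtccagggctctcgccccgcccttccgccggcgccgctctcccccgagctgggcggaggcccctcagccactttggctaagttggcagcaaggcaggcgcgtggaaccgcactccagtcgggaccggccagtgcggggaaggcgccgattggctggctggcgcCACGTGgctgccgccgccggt
The E-box begins 21 bases before the start and TCCCGC 212 bases before it.

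The E-box was looked for in RefSeq windows from 250 bases before to 50 bases after each start, on both strands, and the table held 22 Hox genes, of which 19 were measured. These were 9 Hoxa, 3 Hoxb, 1 Hoxc and 9 Hoxd genes, without the called genes *Hoxb2* and *Hoxc13*. CACGTG was present in 5 of the 22 (22.7%), namely *Hoxd1*, *Hoxd4*, *Hoxd10*, *Hoxd11* and *Hoxd13*, and Hoxb and Hoxc were too thinly covered to compare the clusters. It was present in 8.09% of all 27025 genes and in 9 of 13 germ cell genes with a window (69.2%). TCCCGC, or GCGGGA on the other strand, was present in 6 Hox genes (27.3%), in 5 germ cell genes (38.5%) and in 22.0% of all genes. Both motifs were present together in *Hoxd1*, *Hoxd11* and *Hoxd13* (13.6% of the 22), in 5 germ cell genes (38.5%) and in 2.65% of all genes. Both contain the letters CG, of which Hox windows held a median of 14.5, against 7.0 over all windows, and that of *Hoxd1* held 29. The part of this base composition in the motif shares was not tested. The motifs do not overlap in the sequences shown, and a match describes letters and not binding.

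The stretches around the E-box of 3 other measured Hoxd genes and of 2 germ cell genes are shown so that the flanking letters can be compared with those of *Hoxd1*, with both motifs in capitals. *Hoxd10* lies at chr2:74691791-74691850, *Hoxd11* at chr2:74682200-74682259 and *Hoxd13* at chr2:74667975-74668028, all on the plus strand. *Ddx4*, which encodes a germ cell RNA helicase, lies at chr13:112652311-112652366 on the minus strand, and *Slc25a31*, which encodes a germ cell ADP/ATP carrier, at chr3:40708751-40708810 on the plus strand.
Hoxd10: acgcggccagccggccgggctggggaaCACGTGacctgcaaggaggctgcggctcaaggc
Hoxd11: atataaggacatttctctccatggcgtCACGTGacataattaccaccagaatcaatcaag
Hoxd13: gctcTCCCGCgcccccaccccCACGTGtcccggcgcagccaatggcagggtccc
Ddx4: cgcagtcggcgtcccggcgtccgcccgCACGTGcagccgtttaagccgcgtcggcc
Slc25a31: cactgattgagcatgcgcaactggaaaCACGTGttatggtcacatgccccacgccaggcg
The E-box begins 73 bases before the start in *Hoxd10*, 96 in *Hoxd11* and 229 in *Hoxd13*, beside 29 in *Ddx4* and 93 in *Slc25a31*. Of the 4 measured Hox genes found to hold the E-box *Hoxd1* was called and the others were not, with slopes of 0.09 for *Hoxd10*, -0.07 for *Hoxd11* and 0.09 for *Hoxd13* (limma adjusted p of 0.228, 0.137 and 0.29).

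*Hoxd1*, the most anterior gene of its cluster, had a signal of 3.17 (log2) on the untreated array of set 1 and 3.79, 3.47, 4.57 and 5.47 at 1, 2, 3 and 4 d of Dox. In set 2 it had 4.50 untreated, 7.50 at 6 d and 7.16 at 8 d. Every Dox array lay above its own untreated array, but the second untreated array was itself 2.52-fold above the first, and above Dox 1 and 2 d. Within its set *Hoxd1* reached 2.64-fold of the untreated signal at 3 d and 4.94-fold at 4 d. Late Dox gave 8.01-fold (6 d) and 6.30-fold (8 d). With the untreated arrays exchanged the fold was 1.96 at 4 d and 20.2 at 6 d. The slope was 0.41 ± 0.06 per day (log2, SE, limma adjusted p = 0.00595). Over set 1 alone it was 0.54 per day (limma adjusted p = 0.023), an alternative chosen after seeing the data. Without the second untreated array the slope was 0.42 and the call was lost (limma adjusted p = 0.26), as it was for every gene on the arrays (limma, 0 called, with 2 Hox genes higher at an unadjusted p under 0.05). With all Dox arrays taken as 1 group in place of days the limma adjusted p of *Hoxd1* was 0.0734.

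The neighbours of *Hoxd1* were not called. *Hoxd3*, the nearest measured Hox gene, had 3.43 untreated and 3.93, 3.44, 3.75 and 4.07 at 1 to 4 d, then 3.65 untreated, 3.68 at 6 d and 2.98 at 8 d (slope -0.03, limma adjusted p = 0.788). *Mtx2*, the coding gene on the outer side of *Hoxd1*, which encodes a mitochondrial import protein, had a slope of -0.00 (limma adjusted p = 0.972). *Hoxd8* was at 5.88 and 5.92 at 6 and 8 d against 4.90 untreated, or 2.03-fold at 8 d, with a slope of 0.10 (limma adjusted p = 0.236), and its other probe set was 1.28-fold at 8 d.

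**Figure D2:**
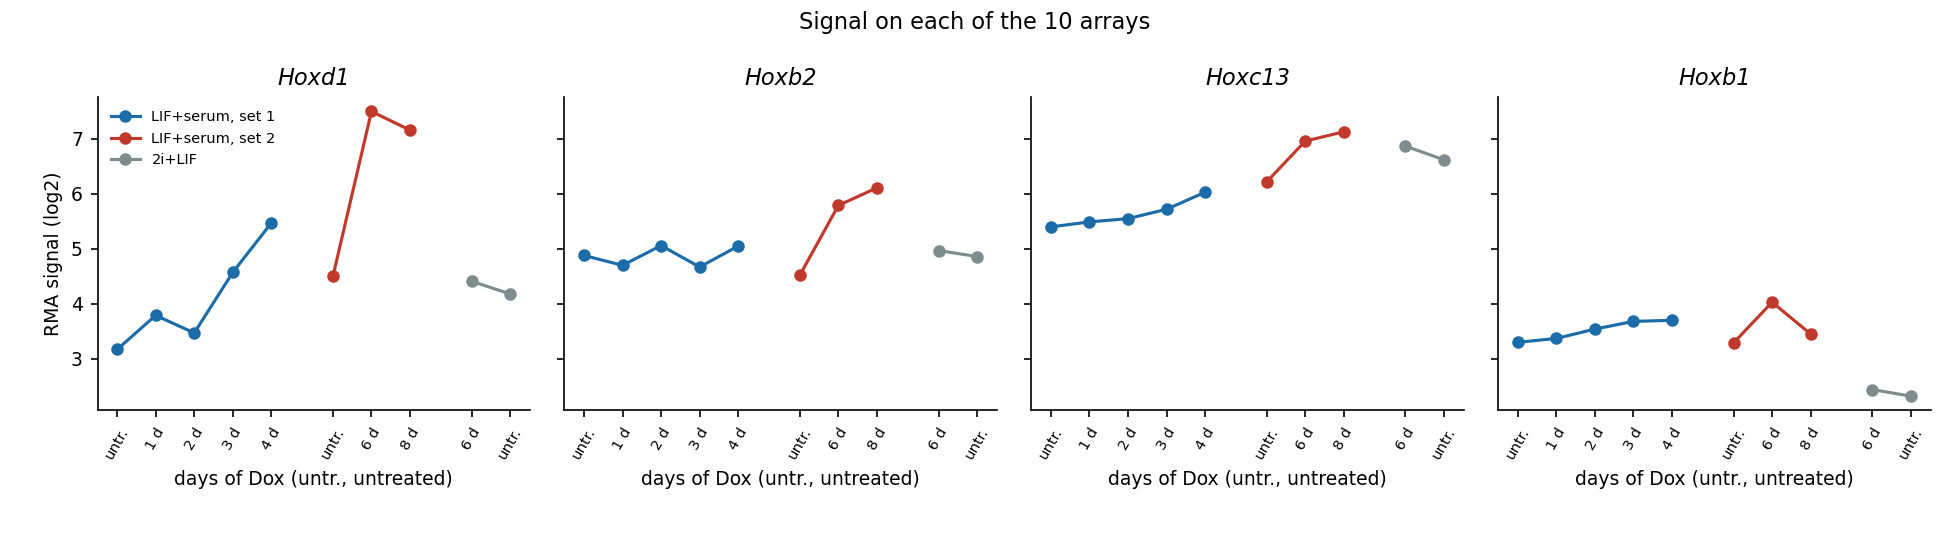
RMA signal (log2) of *Hoxd1*, *Hoxb2*, *Hoxc13* and *Hoxb1* on each of the 10 arrays, 1 point per array, joined within each set; the horizontal axis gives days of Dox. *Hoxd1* climbs in both LIF+serum sets to 7.50 and is at 4.41 with Dox and 4.18 without it in 2i+LIF.

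*Hoxb2*, which patterns the hindbrain, stayed between 4.67 and 5.06 in set 1, with 4.88 untreated and 4.70, 5.06, 4.67 and 5.05 at 1 to 4 d. In set 2 it had 4.52 untreated, 5.79 at 6 d and 6.11 at 8 d, or 2.42-fold and then 3.02-fold. Both late arrays lay above all other arrays of LIF+serum for this gene. The slope was 0.16 ± 0.04 (SE, limma adjusted p = 0.0244), and over set 1 alone it was 0.03 (limma adjusted p = 0.834), so the call rested on set 2. It was lost without the 4 d, 6 d or 8 d array (limma adjusted p of 0.0501, 0.0552 and 0.0769) and without the second untreated array (0.75). *Hoxb1*, next to *Hoxb2* and a direct target of retinoic acid receptors, was above its untreated array on all 6 Dox arrays but by 1.67-fold at most, at 6 d (slope 0.06, limma adjusted p = 0.342). Leaving out the 8 d array gave a slope of 0.12 for *Hoxb1* (limma adjusted p = 0.0365).

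*Hoxc13*, the most posterior gene of its cluster and known for its part in hair and nail formation, rose by less than 2-fold within each set. It had 5.40 untreated and 5.49, 5.55, 5.72 and 6.03 at 1 to 4 d, then 6.22 untreated, 6.96 at 6 d and 7.13 at 8 d. The second untreated array stood above all 5 arrays of set 1, and 1.76-fold above the first untreated array. Within sets the fold was 1.55 at 4 d and 1.88 at 8 d, and the slope was 0.12 ± 0.02 (SE, limma adjusted p = 0.0165). The call was lost without the 4 d array (limma adjusted p = 0.0509), without the second untreated array (0.304) and over set 1 alone (0.152, with a slope of 0.15). *Hoxc10*, the nearest other measured Hoxc gene, had a slope of 0.06 (limma adjusted p = 0.284), and its fold at 8 d was 1.64. *Calcoco1*, the coding gene on the outer side of *Hoxc13*, had 7.01 at 4 d against 6.71 untreated and 7.34 at 8 d against 6.07 untreated, and it rose by the same test (slope 0.14, limma adjusted p = 0.0151).

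**Figure D3:**
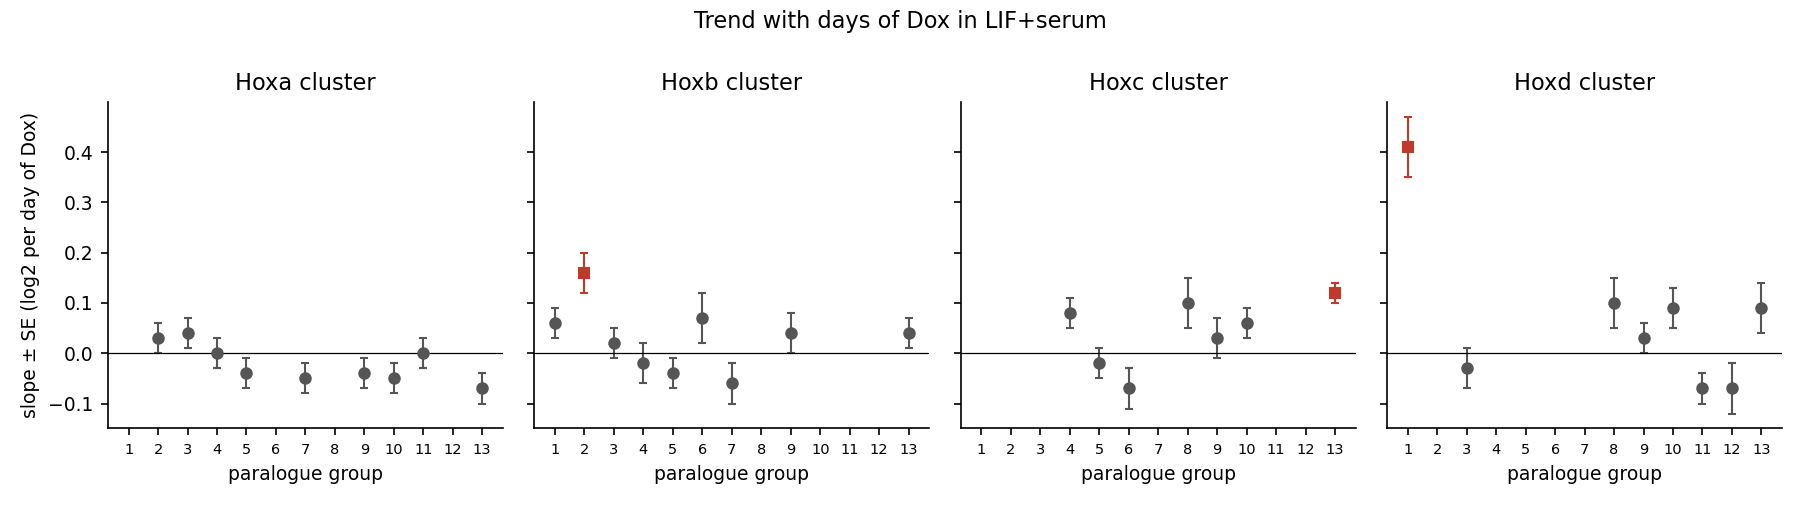
Slope per day of Dox in LIF+serum (log2, vertical axis, points with SE bars from limma) for each measured Hox gene by paralogue group, 1 panel per cluster; squares mark the 3 genes called higher. The called genes stand at group 1 of Hoxd (0.41), group 2 of Hoxb (0.16) and group 13 of Hoxc (0.12), and the others lie between -0.07 and 0.10.

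The calls did not fall together in one cluster or at one end of the clusters. The Hoxa cluster had 0 of 9 genes called, and its members ranged from 0.722-fold to 1.54-fold at 4 d and from 0.621-fold to 1.23-fold at 8 d. The other clusters had 1 called gene each, of 9 in Hoxb, 7 in Hoxc and 8 in Hoxd, with median folds at 8 d of 1.15, 1.64 and 1.34. In the anterior paralogue groups 1 to 3, 2 of 7 genes were called, in the central groups 4 to 8 it was 0 of 12, and in the posterior groups 9 to 13 it was 1 of 14. The 30 genes without a call had slopes from -0.07 to 0.10, 15 of them above and 15 below 0. Of these, 24 stayed within 2-fold of the untreated array of their set on all 6 Dox arrays. The share of all genes that did so was not counted, so this does not set the Hox genes apart. The lowest fold among the 30 was 0.408, for *Hoxd12* at 1 d.

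The share of members that kept one direction stood near that of all genes. Being higher on all 6 Dox arrays than on the untreated array of the same set was a property of *Hoxa3*, *Hoxb1*, *Hoxc13* and *Hoxd1*, 4 of 33, and of 11.8% of all genes. Being lower on all 6 was a property of *Hoxa5*, *Hoxa9*, *Hoxb5*, *Hoxb7*, *Hoxc6* and *Hoxd12*, 6 of 33, and of 21.4% of all genes. The untreated arrays of LIF+serum were at least 2-fold apart for 3 Hox genes, *Hoxd1*, *Hoxb6* and *Hoxc6*, and for 8.45% of all genes. *Hoxb6* had 3.77 on the second untreated array and 4.89 on the first, so that its 1.95-fold at 8 d ended at 4.73, below the first untreated array.

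At single times there was 1 array, so folds are given without a test. At 4 d *Hoxd1* was the 1 Hox gene at least 2-fold higher, where 7.72% of all genes were, and 0 were 2-fold lower, where 3.92% of all genes were. At 8 d 5 of 33 (15.2%) were at least 2-fold higher, where 6.38% of all genes were, and 0 were 2-fold lower, beside 5.65% of all genes. These were *Hoxb2* (3.02), *Hoxc8* (2.11), *Hoxd1* (6.30), *Hoxd8* (2.03) and *Hoxd13* (2.24). *Hoxc8*, with 3.77 at 8 d and 2.70 untreated, and *Hoxd13*, with 6.11 at 8 d and 4.94 untreated, had no call for the slope (limma adjusted p of 0.224 and 0.29). The other probe set of *Hoxd13* was 0.744-fold at 8 d.

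The late Dox arrays, from which the folds of 8.01 and 3.02 come, differed from the others in more than Hox genes. The 3′ probe set of beta-actin exceeded the 5′ one by 1.22 (log2) at 8 d and by 1.46 at 6 d, against 0.88 on the second untreated array, and in set 1 by 0.52 to 0.56 with Dox against 0.41 untreated. The signals of 8 primitive endoderm markers summed to 740 at 8 d and 398 at 6 d, against 302 untreated, and those of 7 trophectoderm markers to 1659 at 8 d and 520 at 6 d, against 440 untreated (linear scale). Primitive endoderm markers went both ways, from 0.452-fold to 4.60-fold at 6 d and from 0.631-fold to 6.05-fold at 8 d (median 2.14-fold). Of these *Col4a1* was bright, at 8.40 at 8 d against 6.94 untreated (log2), and so weighed heavily in the sum. The trophectoderm sum was carried at 8 d by the keratin genes *Krt8* (9.39, against 7.42 untreated, log2) and *Krt18* (9.69, against 7.05 untreated), while *Cdx2* and *Elf5* were 0.946-fold and 0.846-fold and the median of the list was 1.31-fold. *Pdgfra* was the 1 primitive endoderm marker called higher, with folds of 2.28 (4 d), 4.60 (6 d) and 6.05 (8 d), and 0 trophectoderm, 0 mesoderm, 0 neuroectoderm and 0 feeder fibroblast markers were called. At 4 d the primitive endoderm sum was 267, against 289 untreated, and the trophectoderm sum 454, against 569 untreated. The sum of 10 feeder fibroblast markers was 3763 at 4 d, against 1582 untreated. It was carried by *Fn1* (fibronectin), at 11.77 against 10.33 untreated (log2), or 2.71-fold. The median of the list was 0.922-fold at 4 d, and *Col1a2* and *Col3a1* were 0.749-fold and 0.698-fold. The part of these markers and of RNA quality in the Hox values at 4, 6 and 8 d was not tested.

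Probe sets that were not the brightest of their gene gave a different picture for a few members. *Hoxa3*, read from its brightest probe set, was 1.01-fold at 8 d (slope 0.04, limma adjusted p = 0.508). Another of its 4 probe sets had 3.13 untreated, 4.27 at 6 d and 5.26 at 8 d, or 4.40-fold at 8 d, with a slope of 0.18 (limma adjusted p = 0.0803). In 2i+LIF the second probe set of *Hoxa5* had 5.78 with Dox and 4.27 untreated, or 2.84-fold, while the brightest had 6.02 with Dox and 5.96 untreated. Of the 33 genes 22 had 1 probe set only, and 13 reached 6 (log2) on any array, beside 63.3% of all genes. RMA shrinks differences among such weak signals.

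In 2i+LIF every Hox gene, read from its brightest probe set, stayed within 2-fold of the untreated array. No Hox gene was at least 2-fold higher (0 of 33), beside 1.75% of all genes, and none was 2-fold lower (0 of 33), beside 2.42% of all genes. The median fold was 0.946 and the range ran from 0.522 for *Hoxb13* (5.07 with Dox, 6.01 untreated) to 1.70 for *Hoxa7* (7.18 with Dox, 6.41 untreated). *Hoxd1* had 4.41 with Dox and 4.18 untreated, or 1.17-fold. *Hoxb2* had 4.97 with Dox and 4.86 untreated, and *Hoxc13* had 6.87 with Dox and 6.62 untreated.

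Whether the slope differed between media was tested with limma on all 10 arrays, where the 2i+LIF slope rests on 1 treated and 1 untreated array assumed to vary like the others. For *Hoxd1* the slope was 0.04 per day in 2i+LIF (95% interval -0.18 to 0.25), and the difference of 2i+LIF from LIF+serum was -0.37 ± 0.11 (SE), with an unadjusted p of 0.00897 and a limma adjusted p of 0.293. No Hox gene was called for this difference (0 of 33), beside 0% of all genes, and 3 Hox genes, *Hoxa7*, *Hoxb13* and *Hoxd1*, had an unadjusted p under 0.05, beside 12.6% of all genes. A difference between media was thus not shown for any Hox gene.

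Germ cell genes were read on the same arrays for comparison. They are 15 genes of meiosis and the germ line that the study tabulated from these arrays. Neither their direction nor the size of their folds is therefore independent evidence. Binding of PRC1.6 was not a condition for the list. Of these 13 rose (median slope 0.677) and 0 fell, and *Hormad1* and *Sycp3* did not pass (limma adjusted p of 0.0561 and 0.0968). Not passing did not mean a flat signal, since both lay above their own untreated array on all 6 Dox arrays. The fold of *Hormad1* was 56.2 after 4 d of Dox, the largest of the 15, and 8.16 after 8 d. For *Sycp3* the same folds were 18.7 and 2.93. The paper describes *Hormad1* as highest near day 4, with a sharp fall later. Why these genes missed the threshold was not tested. The RNA-binding protein gene *Dazl* reached 49.2-fold at 4 d and 41.2-fold at 8 d in LIF+serum, and 4.01-fold in 2i+LIF. Its untreated signal was 10.1 (log2) in 2i+LIF, against 5.79 and 6.87 in LIF+serum. With Dox it was at 12.1 in 2i+LIF and 12.24 at 8 d in LIF+serum. Untreated germ cell genes had a median difference of 1.02 (log2) between 2i+LIF and LIF+serum, beside -0.11 for all genes, so folds in the 2 media start from unlike levels. The median fold of the Hox genes was 0.834 at 4 d, against 28.0 for the germ cell genes and 0.936 for all genes. At 8 d it was 1.11, against 21.0 for the germ cell genes and 0.974 for all genes, and in 2i+LIF it was 0.946, against 3.97 for the germ cell genes and 1.01 for all genes. At 4 d the highest Hox fold, 4.94 for *Hoxd1*, lay below the lowest germ cell gene, at 12.8-fold. The ranges overlapped elsewhere. At 6 d *Hoxd1* was at 8.01-fold against a lowest germ cell gene at 4.03-fold, at 8 d *Hoxd1* and *Hoxb2* were at 6.30-fold and 3.02-fold against 2.93-fold, and in 2i+LIF the highest Hox gene was at 1.70-fold against 0.827-fold. With the mean of both untreated arrays as reference the Hox median was -0.05 (log2) at 4 d and -0.01 at 8 d, in place of -0.26 and 0.15.

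Other developmental regulators known as Polycomb targets in ESCs were set beside the Hox genes. Of 83 measured, 2 rose and 0 fell, with median folds of 0.850 at 4 d, 1.05 at 8 d and 1.00 in 2i+LIF. *Foxa1*, an endodermal pioneer factor, had 5.41 at 4 d against 4.53 untreated and 8.01 at 8 d against 3.84 untreated, or 17.9-fold (slope 0.45, limma adjusted p = 0.00523). *Pou4f1*, a sensory neuron factor, had a slope of 0.18 (limma adjusted p = 0.00972) and was 2.50-fold at 8 d. The share called higher in this list was 2.41%, against 5.75% of all genes.

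**Figure D4:**
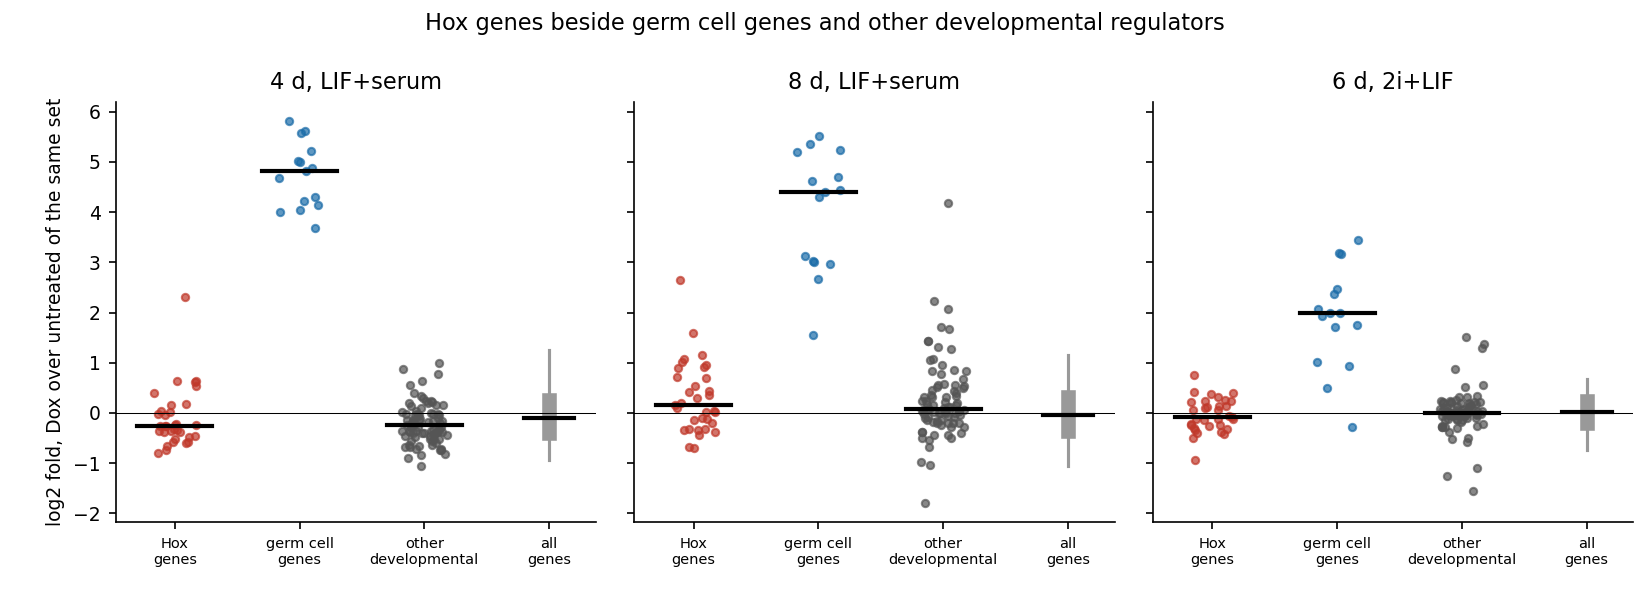
Log2 fold of Dox over the untreated array of the same set at 4 d, at 8 d and in 2i+LIF, 1 point per gene with the median as a black line, for 33 Hox genes, 15 germ cell genes and 83 other developmental regulators; for all 18193 genes the thin bar spans the 5th to 95th percentile and the thick bar the quartiles. The Hox genes lie below the germ cell genes at 4 d, with medians of -0.26 for the Hox genes and 4.81 for the germ cell genes, and the ranges of both overlap at 8 d and in 2i+LIF. The study tabulated the germ cell genes from these arrays, so the separation at 4 d is not independent evidence.

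Most subunits of the complexes that silence Hox clusters were measured. In PRC2 1 of 11 rose (9.09%, beside 5.75% of all genes), the accessory subunit *Aebp2* (2.28-fold at 8 d, slope 0.17, limma adjusted p = 0.0105). Its catalytic subunit *Ezh2* was 1.02-fold at 8 d (limma adjusted p = 0.898). Earlier folds in PRC2 were larger for some subunits, and after 4 d of Dox the list spanned 0.797 to 3.56 (median 1.38). The top value belonged to the accessory subunit *Mtf2*, which had no call (slope 0.17, limma adjusted p = 0.0929). Its signal (log2) went from 10.7 untreated to 12.53 after 4 d, while the second untreated array read 11.45. Among 17 measured PRC1 genes, listed without the subunits particular to PRC1.6, 1 rose (5.88%) and 2 fell (11.8%, beside 5.33% of all genes). The list holds *Rnf2*, which the paper also counts among the components of PRC1.6. *Phc3* rose (slope 0.16, limma adjusted p = 0.0353). The chromodomain subunits *Cbx7* and *Cbx6*, which read the PRC2 mark, fell, to 0.522-fold and 0.605-fold at 8 d (limma adjusted p of 0.0228 and 0.0495). *Cbx8*, another chromodomain subunit, was 2.23-fold at 8 d without a call (limma adjusted p = 0.5). At 4 d *Rnf2* and *Bmi1* were 2.57-fold and 2.46-fold, also without a call (limma adjusted p of 0.133 and 0.205). The second untreated array was 1.32-fold above the first for *Rnf2* and 2.26-fold for *Bmi1*. Against that second array the 4 d folds were 1.95 for *Rnf2* and 1.09 for *Bmi1*.

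On the activating side 2 of 13 genes rose (15.4%, beside 5.75% of all genes). *Kmt2a*, the trithorax methyltransferase that keeps Hox genes active, had a fold of 1.69 at 8 d (limma adjusted p = 0.0394). Its second untreated array was 1.83-fold above the first. *Cdx1*, a homeobox activator of Hox genes, had 7.02 at 4 d against 5.61 untreated and 7.95 at 8 d against 5.96 untreated (slope 0.28, limma adjusted p = 0.00402). Of 8 measured TALE cofactors, which bind DNA together with HOX proteins, 0 were called, and *Meis2* was 2.48-fold at 8 d and 3.76-fold in 2i+LIF (slope 0.19, limma adjusted p = 0.0989).

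Retinoic acid opens Hox clusters from their anterior end, so its receptors and targets were read too. Of 14 measured 2 rose (14.3%, beside 5.75% of all genes) and 0 fell (beside 5.33%). At 8 d the list ranged from 0.535-fold for *Rara* to 7.98-fold for *Cyp26a1*, with a median of 1.10-fold. *Cyp26a1* was not called (slope 0.24, limma adjusted p = 0.079). *Rarb*, a receptor that is itself a target, had 4.85 at 4 d against 3.74 untreated and 6.45 at 8 d against 3.70 untreated, or 6.72-fold (slope 0.35, limma adjusted p = 0.00285), and 5.06 both with Dox and untreated in 2i+LIF. *Crabp1*, a retinoic acid binding protein, was 2.73-fold with Dox at 8 d (slope 0.17, limma adjusted p = 0.0214). The receptor motif AGGTCA was in the promoter windows of 7 of 22 Hox genes (31.8%) and of 18.1% of all genes, and *Hoxd1* was not among the 7. Neither was *Hoxb1*, a direct target of these receptors, so a window without the motif does not set a gene apart from retinoic acid targets.

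Noncoding and flanking genes were read beside the members. Of the noncoding genes inside the clusters 3 were measured and 0 were called, with *Hoxb5os* at 2.42-fold at 8 d (slope 0.10, limma adjusted p = 0.163). Of 23 measured genes that flank the clusters 2 rose (8.70%, beside 5.75% of all genes). These were *Calcoco1* and *Atf2*, a transcription factor gene beyond the posterior end of the Hoxd cluster (slope 0.22, limma adjusted p = 0.0204). Among ESC markers *Nanog* and *Klf4* rose (slopes 0.11 and 0.24) and *Utf1* fell by 0.14 per day, of 10 measured, and the summed signal of the list was 55450 at 4 d, against 42530 untreated, and 56180 at 8 d, against 46140 untreated. For *Max* itself the folds were 0.773 at 4 d and 1.37 at 8 d (limma adjusted p = 0.785). No source used here says whether that probe set reads the disrupted gene or the cDNA, and it is no check of the labels.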

How the data were processed

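The sample labels gave the condition of each array, with the medium of the older arrays from their growth protocol and the paper. The authors used robust multi-array analysis and deposited log2 values. RMA and affy stand in the submitters' processing notes. No source used here gives their versions or the arrays normalized together. The 64 control probe sets were left out of 45101, and of the other 45037 the platform annotation paired 34945 with 1 symbol, 932 with several and left 9160 unnamed here. Slopes per day and the difference of slopes between media were fitted to all probe sets with limma 3.58.1 in R 4.3.3 (lmFit and eBayes, 5 residual and 4.81 prior degrees of freedom, Benjamini-Hochberg, threshold 0.05). Counts over all genes took the brightest probe set per gene. Folds are differences of log2 values turned into ratios. Python 3.11.15 with pandas 2.3.3, numpy 2.4.6, scipy 1.17.1 and matplotlib 3.10.9 did the rest. On simulated data the trend test found 78 of 100 slopes of 0.25 and 98 of 100 slopes of 0.5, and the test between media found 7 and 67 of 100. The simulated noise was independent between probe sets, without shifts shared by a whole array. Slopes as small as those of the Hox genes without a call were not tried. Members, lists and the naming rule were chosen with earlier results of these data known. That rule took every called Hox gene, the 10 with the largest slopes, those past 2-fold at 4 d, 8 d or in 2i+LIF, the brightest of each cluster, *Hoxb1*, and up to 4 members per list, and 1 item is not reported here. Some further genes were named after their values were seen: *Hoxa3*, *Hoxa5*, *Hoxa9*, *Hoxb5*, *Hoxb6*, *Hoxb7*, *Hoxb13*, *Hoxc6*, *Hoxc10*, *Hoxd3*, *Mtx2*, *Ezh2*, *Mtf2*, *Cbx8* and *Rara*. Promoter windows are from RefSeq (GRCm38.p6). The number of arrays limits the precision. Alternatives changed the normalization, the array set term, the time scale, the probe set rule, the reference array and the threshold, and left out each array in turn.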

Additional observations from a re-analysis of the deposited data

How the results depend on the processing

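Of the count of 3 Hox genes higher with days of Dox, 1 was left with the 10 arrays and 1 common slope (*Hoxc13*), 0 with all Dox arrays as 1 group and 1 over set 1 only (*Hoxd1*), where 1.99%, 2.11% and 4.31% of all genes were higher, and leaving out 1 array gave 0 to 4 (0% to 6.82% of all genes). The count lower was 0, and the count for the difference between media was 0, in every alternative run. The slope of *Hoxd1* was 0.30 with the 10 arrays (limma adjusted p = 0.0545) and that of *Hoxb2* 0.12 (0.0986), and with all Dox arrays as 1 group *Hoxd1*, *Hoxb2* and *Hoxc13* had limma adjusted p of 0.0734, 0.22 and 0.14. The median log2 fold of the Hox genes was -0.05 at 4 d and -0.01 at 8 d against both untreated arrays together, 0.30 at 8 d with the mean of a gene's probe sets, and 0.36 at 8 d and 0.10 in 2i+LIF over genes that reach 6. At 1.5-fold in place of 2-fold, 4 Hox genes were higher and 4 lower at 4 d, 10 higher and 2 lower at 8 d, and 1 higher and 1 lower in 2i+LIF. At 8 d, 3 were 2-fold higher with the mean of the probe sets and 3 over genes that reach 6. The median log2 difference of the untreated 2i+LIF array from both untreated LIF+serum arrays was -0.08 as deposited and 0.26 after quantiles, an alternative chosen after seeing the data. Slopes of members without a call changed sign: *Hoxa7* was 0.00 with the 10 arrays. Without 1 array each, the slopes ranged from -0.04 to 0.03 for *Hoxb3*, 0.00 to 0.13 for *Hoxc8*, -0.01 to 0.05 for *Hoxc9*, -0.01 to 0.13 for *Hoxd8*, -0.01 to 0.05 for *Hoxd9* and -0.06 to 0.12 for *Hoxd13*. *Hoxb3* was -0.04 with all Dox arrays as 1 group, -0.03 with no array set term, and -0.04 over set 1. *Hoxc9* was -0.09, -0.01 and -0.02 under the same alternatives. Over set 1, *Hoxc8* was -0.02, *Hoxd8* -0.02 and *Hoxd13* -0.10. *Hoxd9* was -0.02 with no array set term and over set 1. The sign changes on leaving out 1 array came without the second untreated array, and for *Hoxd9* without the 8 d array. The cause was not tested. No paired analysis was possible because each Dox time had 1 array. The signal over background limits the members that stay under 6 (log2).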

Other observations

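Untreated cells of both media were compared by values only, since each medium had its own array set and joint normalization is not known. *Hoxd9*, a posterior gene of the Hoxd cluster, had 6.62 (log2) on the untreated 2i+LIF array, against 5.43 and 4.76 on the untreated LIF+serum arrays. *Hoxb6* had 2.97 in 2i+LIF, against 4.89 and 3.77 in LIF+serum. The difference of *Hoxd9* from the mean of both LIF+serum arrays was 1.53 as deposited and 1.53 after normalizing by quantiles once more, and that of *Hoxb6* was -1.36 and -1.05, where the median over all genes was -0.11 and -0.05.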
